A study of Mus musculus with 3 samples.

Results

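The genes described here are 10 members of the TGF-beta and activin pathway out of the 20605 genes of the count matrix. They were picked by name, with earlier results of these data known. They fall into 4 roles: 4 targets (Pmepa1, Smad7, Skil and Tgfbi), 3 ligand genes (Inhba, Tgfb1 and Tgfb2), 2 receptors (Tgfbr1 and Tgfbr2) and 1 activin trap (Fst). All 10 were found in the matrix and passed the filter on low counts. They were followed in cells of primary mammary tumours from 4 C3(1)-Tag mice of the FVB strain, in which the C3(1) promoter drives a viral large T antigen in mammary epithelium, aged 25 to 30 weeks and with tumours of 20 mm. Tumour organoids were plated in collagen I, the fibrous collagen of connective tissue, and cell clusters in Matrigel, an extract of basement membrane, all in medium with 2.5 nM FGF2. They were collected after 12 h (day 0), 3 days or 5 days. The same 4 animals supplied both matrices, so every group carried the transgene and the FGF2. Each cell's mouse and matrix were marked by MULTI-seq, which anchors a barcode in the membrane, and every pool also held cells of 4T1, an established mouse mammary carcinoma line grown on plastic.

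TGF-beta and activin are secreted dimers that signal through a pair of serine/threonine kinase receptors to the transcription factors SMAD2 and SMAD3. Those factors act with SMAD4 on genes that include the pathway's own brakes, so the RNA of such targets is commonly used as a readout of the signal. In mammary carcinoma the pathway is known for growth arrest in early lesions and for matrix production, invasion and changes of epithelial state later on.

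The matrix held 7620 cells, and the pools of days 0, 3 and 5 summed to 60391888, 140869562 and 68725854 UMIs. Of 7307 cells labelled with a mouse, 337 lay in macrophage-like, fibroblast-like or T and NK-like clusters and were left out. The other 6970, called tumour cells here, were summed by mouse, matrix and day into 21 sums of 38 to 1148 cells, which were compared. Of them 6097 lay in epithelial-like clusters, 579 in unnamed clusters of low UMI count and 238 in another unnamed cluster. On day 0 unnamed clusters held 273 of 939 cells in collagen and 266 of 1701 in Matrigel. All 6 epithelial markers were detected in every group. Day 5 had only 3 collagen sums against 2 Matrigel sums, since mouse 4 had no cells on that day and mouse 1 had 13 in Matrigel, under the minimum of 20. The barcodes of 7 cells recurred between the pools of days 0 and 3, 4 between days 3 and 5 and 0 between days 0 and 5. Another 56 cells labelled with a mouse clustered with 4T1 and were kept. Each day was 1 pool, so the day cannot be told apart from its pool. The submitters' labels give 1 batch per day, whereas the batch column of the cell annotation joins the first 2 time points. Gels were opened with collagenase for collagen and with EDTA on ice for Matrigel, and this handling cannot be told apart from the matrix. The first time point is named D1 in the cell annotation, and was inferred to be day 0. In sums of cells, fewer cells with a transcript and less RNA per cell cannot be told apart. Shares of cells at equal depth are also given for some genes, and they do not separate the 2 either.

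Levels below are CPM, the gene's UMIs relative to the total of a sum, scaled by TMM, the trimmed mean of M-values. Differences are log2 fold changes from edgeR's quasi-likelihood test with p-values adjusted by Benjamini-Hochberg over all 13184 genes tested, and a gene was called at an adjusted p under 0.05. The fit had 6 groups without a term for the mouse. Because the sums are paired by mouse, values from a second fit that takes the mouse as a block are given for the 10 genes wherever they change a call, and for the pathway lists as counts with examples.

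**Figure D1:**
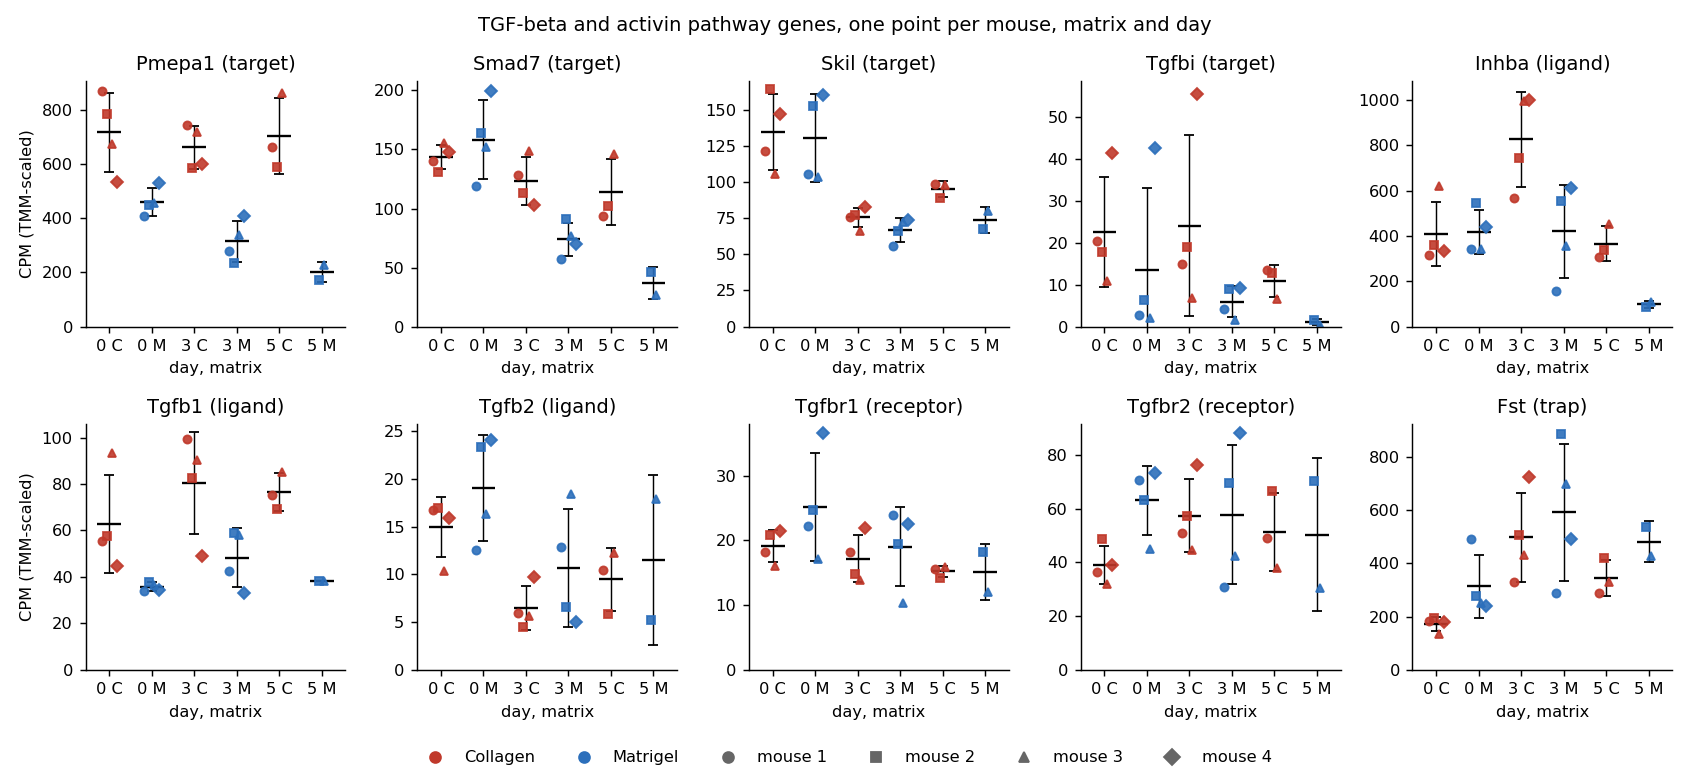
CPM of the 10 genes (y axis, linear from 0, a scale per gene) by day and matrix (x axis; C, collagen; M, Matrigel), 1 point per mouse, with the group mean (horizontal line) and SD (bar). Pmepa1 stayed between 534.8 and 870.1 CPM in collagen and was at most 226.0 CPM in Matrigel on day 5, and Tgfbi was highest in mouse 4.

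Among the targets, Pmepa1 was the member that passed the test between matrices on each of the 3 days. Pmepa1 encodes a membrane protein that binds SMAD2 and SMAD3 and damps the signal that induces it. In the GENCODE vM21 annotation of GRCm38 it lies on the minus strand of chr2:173224458-173276533. On day 0 its level in mice 1 to 4 was 870.1, 784.2, 674.2 and 534.8 CPM in collagen and 407.9, 446.7, 455.5 and 530.2 CPM in Matrigel. The groups did not overlap, but in mouse 4 the matrices were nearly level. On day 3 the collagen sums held 741.6, 584.5, 718.4 and 598.9 CPM and the Matrigel sums 278.6, 234.6, 338.6 and 407.3 CPM. On day 5 mice 1 to 3 had 662.6, 588.1 and 860.6 CPM in collagen, and mice 2 and 3 had 173.6 and 226.0 CPM in Matrigel. Collagen was higher in every mouse that had both matrices, and no day's groups overlapped.

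The log2 difference of Pmepa1 between collagen and Matrigel was 0.64 (SE 0.18, adjusted p = 0.0375) on day 0, 1.07 (SE 0.18, adjusted p = 0.0159) on day 3 and 1.82 (SE 0.25, adjusted p = 0.00199) on day 5. Pmepa1 fell in Matrigel by 0.55 on the log2 scale from day 0 to day 3 (SE 0.18, adjusted p = 0.0217), and in collagen the same step was -0.12 (SE 0.18, adjusted p = 0.704), a change in the matrix difference of 0.43 (SE 0.25, adjusted p = 0.577). From day 3 to day 5 the Matrigel value was -0.66 (SE 0.23, adjusted p = 0.133). The test of the change in the matrix difference from day 0 to day 5 gave 1.18 (SE 0.30) with an adjusted p of 0.053, and 1.15 with 0.0123 when the mouse was a block. The calls on the matrix difference were lost when mouse 1, 2 or 3 was left out, with differences of 0.47, 0.58 and 0.66 on day 0 (adjusted p = 0.297, 0.206 and 0.136). On day 3 they were 0.97, 1.01 and 1.07 (adjusted p = 0.379, 0.206 and 0.134), and on day 5 1.87, 1.77 and 1.87 (adjusted p = 0.0512, 0.154 and 0.293). The fall in Matrigel was likewise lost without mouse 1 (-0.54, adjusted p = 0.0783), mouse 2 (-0.44, 0.144) or mouse 3 (-0.58, 0.0673).

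Once every cell was thinned to 5000 UMIs, a Pmepa1 UMI was found in a larger share of cells in collagen. Such a share also falls when each cell holds less Pmepa1 RNA, so it does not count the cells that carry the transcript. On day 0 the share was 88.1% ± 2.81 in collagen and 78.6% ± 1.28 in Matrigel (SD, n = 4 mice each), a difference of 9.50 percentage points with an exact two-sided permutation p of 0.0286. On day 3 it was 88.3% ± 3.11 and 70.1% ± 9.55, a difference of 18.2 points with the same exact permutation p, the smallest that 4 against 4 allows. The day 5 shares were 88.9% ± 4.70 (n = 3) and 52.3% ± 10.2 (n = 2), 36.6 points apart, where the exact permutation test cannot go below 0.2. The share stood near one level in collagen while that in Matrigel was lower on each later day. With the mice paired, the smallest p the exact test allows is 0.125 for 4 mice, and that was the value on days 0 and 3. Without thinning the share was 88.0% and 85.3% in collagen and Matrigel on day 0, a difference of 2.74 points (exact permutation p = 0.543). It was 97.7% and 92.4% on day 3 and 99.5% and 100% on day 5, when the median depth per cell was 54762 and 59399 UMIs. Cells under 5000 UMIs were left out of the thinned shares. In collagen these were 226 of 939 cells on day 0, 29 of 2477 on day 3 and 6 of 1064 on day 5. In Matrigel they were 328 of 1701, 38 of 687 and 2 of 102. For comparison, 36.5% of 192 thinned macrophage-like cells held a Pmepa1 UMI (median depth 13977 UMIs, against 31767 in tumour cells), and 70.6% of 309 cells of 4T1.

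**Figure D2:**
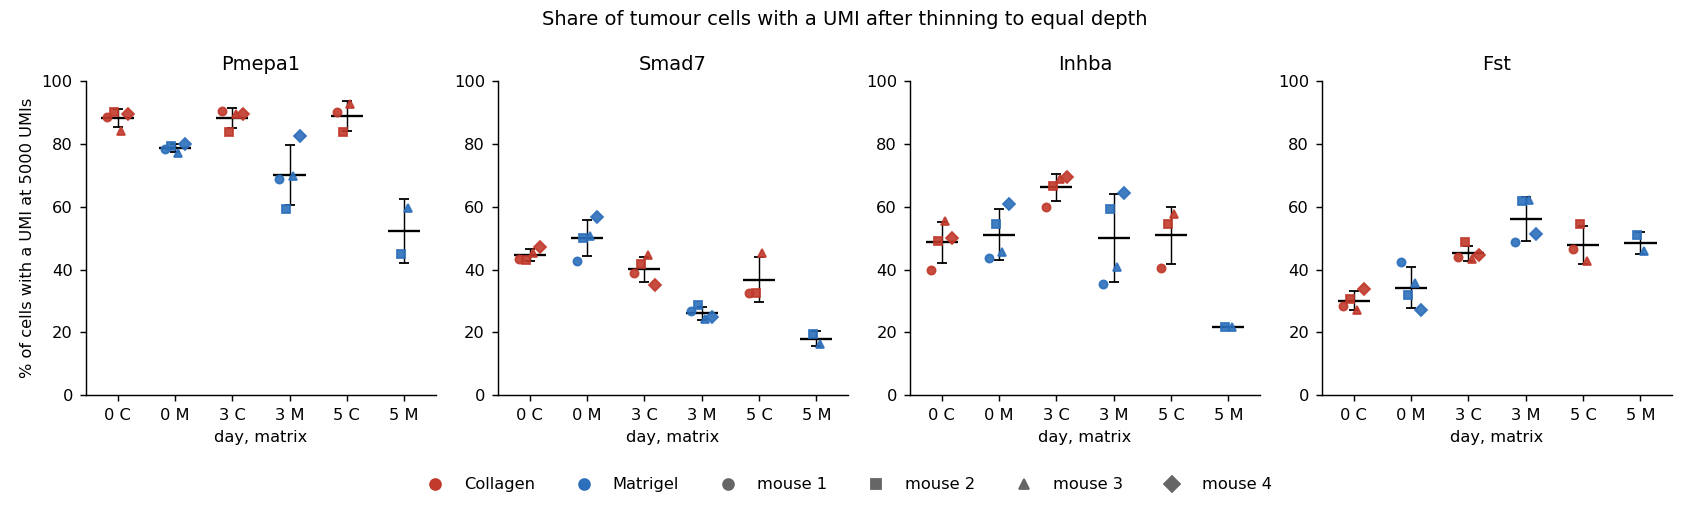
Percentage of tumour cells with at least 1 UMI of Pmepa1, Smad7, Inhba or Fst after thinning to 5000 UMIs (y axis) by day and matrix (x axis; C, collagen; M, Matrigel), 1 point per mouse, with the mean and SD. On days 0, 3 and 5 the Pmepa1 share in collagen was 88.1%, 88.3% and 88.9%, and the share in Matrigel 78.6%, 70.1% and 52.3%.

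Smad7, the inhibitory SMAD that occupies the type I receptor and recruits ubiquitin ligases to it, overlapped between the matrices on day 0 and was lower in Matrigel on both later days. On day 0 mice 1 to 4 had 140.3, 130.8, 155.2 and 148.0 CPM in collagen and 118.7, 164.2, 151.7 and 199.2 CPM in Matrigel, overlapping groups with a log2 difference of -0.14 (SE 0.19, adjusted p = 0.708). By day 3 the Matrigel sums were at 57.2, 91.2, 77.1 and 69.7 CPM, all below the collagen sums of 128.0, 113.2, 149.0 and 103.1 CPM. Day 5 left 46.2 and 27.0 CPM in Matrigel (mice 2 and 3) against 93.7, 101.9 and 146.0 CPM in collagen. In Matrigel Smad7 thus fell by 1.10 on the log2 scale from day 0 to day 3 (SE 0.19, adjusted p = 0.000223) and by a further 1.01 from day 3 to day 5 (SE 0.26, adjusted p = 0.0412). In collagen the steps were -0.22 (adjusted p = 0.465) and -0.12 (adjusted p = 0.896).

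The matrix difference of Smad7 was 0.74 on day 3 (SE 0.19, adjusted p = 0.140), called with the mouse as a block (0.75, adjusted p = 0.0215), and 1.63 on day 5 (SE 0.27, adjusted p = 0.0110). Smad7 was the 1 member whose matrix difference changed from day 0 to day 5 without the block, by 1.77 (SE 0.33, adjusted p = 0.0184). With the block the change by day 3 was called as well (0.88, adjusted p = 0.0438). Calls that rested on day 5 did not outlast the loss of a mouse: without mouse 1, 2 or 3 the day 5 difference was 1.76, 2.17 and 1.11 (adjusted p = 0.0528, 0.154 and 0.529) and its change from day 0 2.01, 2.25 and 1.31 (adjusted p = 0.117, 0.134 and 0.344). The last fall in Matrigel was then -1.12, -1.35 and -0.69 (adjusted p = 0.0537, 0.235 and 0.474). The fall from day 0 to day 3 was called without any 1 of the 4 mice, with adjusted p of 0.00153 to 0.00409. Thinned shares of cells with a Smad7 UMI followed the same order, from 44.7% ± 1.91 and 49.9% ± 5.75 in collagen and Matrigel on day 0 to 36.8% ± 7.19 and 17.9% ± 2.40 on day 5, beside 20.3% in macrophage-like cells.

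Skil, which encodes SnoN, a SMAD-binding corepressor, moved with time and showed no called difference between matrices. Its levels in mice 1 to 4 on day 0 were 121.1, 164.4, 105.3 and 147.3 CPM in collagen and 105.3, 152.7, 103.6 and 160.1 CPM in Matrigel. By day 3 they were 75.8, 77.3, 66.5 and 82.4 CPM in collagen and 55.5, 66.4, 72.3 and 73.8 CPM in Matrigel. The days did not overlap in either matrix. Skil fell by 0.83 in collagen (SE 0.16, adjusted p = 0.00119) and by 0.95 in Matrigel (SE 0.16, adjusted p = 0.000151), and both calls held without any 1 mouse. Its matrix differences were 0.04, 0.16 and 0.37 on days 0, 3 and 5 (SE 0.16, 0.16 and 0.21; adjusted p = 0.908, 0.861 and 0.527).

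Tgfbi encodes an extracellular protein that binds collagens and integrins and takes its name from its induction by TGF-beta. It had the largest log2 matrix differences of the 10 genes on days 3 and 5 and also the largest errors. On day 0 mice 1 to 4 had 20.5, 17.7, 10.9 and 41.4 CPM in collagen and 2.7, 6.4, 2.1 and 42.7 CPM in Matrigel. Mouse 4 was the highest in both matrices and the only one not higher in collagen. Day 3 brought 14.99, 19.1, 6.8 and 55.5 CPM in collagen and 4.1, 9.0, 1.6 and 9.2 CPM in Matrigel, higher in collagen in all 4 mice although the groups overlapped. On day 5 the collagen sums of mice 1 to 3 held 13.5, 12.8 and 6.6 CPM and the Matrigel sums of mice 2 and 3 held 1.5 and 0.5 CPM, outside the range of collagen.

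The log2 differences of Tgfbi were 0.74 (SE 0.78), 1.85 (SE 0.83) and 3.28 (SE 1.57) on days 0, 3 and 5, none of them called (adjusted p = 0.620, 0.458 and 0.419). With the mouse as a block all 3 were, at 1.35 (SE 0.37, adjusted p = 0.0146), 1.91 (SE 0.41, adjusted p = 0.0145) and 3.38 (SE 0.88, adjusted p = 0.0308). The day 0 result without the block turned on single mice. With 1 mouse left out it was 0.45 to 2.16, called in at least 1 of those fits. Tgfbi was also the member most abundant in macrophage-like cells, at 387 CPM against 12.9 in tumour cells and 0.49 in 4T1. The summed level of the 7 macrophage markers left in the tumour sums was 13.5 to 28.8 CPM in collagen and 7.34 to 20.7 CPM in Matrigel on day 0. On day 3 it was 9.05 to 11.1 and 6.01 to 15.4 CPM, and on day 5 6.70 to 7.94 and 3.75 to 4.02 CPM. All 7 were detected on days 0 and 3, while Adgre1 was at 0 in both matrices and C1qb and Mrc1 in Matrigel on day 5. Their part in the Tgfbi difference was not tested. In the 13 Matrigel cells of mouse 1 on day 5, which entered no test, Tgfbi stood at 30.5 CPM without TMM scaling (95% Poisson interval 18.4 to 47.7), above both tested Matrigel sums and the 3 collagen sums of that day.

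RefSeq promoter sequences of GRCm38.p6 were available for 6 of the 10 genes, and they were searched for CAGAC, the short sequence that SMAD3 binds, on both strands over the 250 bases before the RefSeq start. Tgfbi held it in 2 places, both on the strand opposite the gene, where it reads GTCTG, starting 239 and 85 bases before the RefSeq start. The stretch of Tgfbi at chr13:56609336-56609522 on the plus strand is shown because it holds both matches, which are in capitals. It ends just before the first base of the gene in GENCODE, which lies upstream of the RefSeq start.
Tgfbi: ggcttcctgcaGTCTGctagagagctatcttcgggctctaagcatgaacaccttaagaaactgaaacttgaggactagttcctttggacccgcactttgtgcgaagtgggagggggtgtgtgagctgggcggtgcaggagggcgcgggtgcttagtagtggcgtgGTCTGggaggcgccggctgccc
CAGAC is short, and 42.2% of 32851 promoters of that length held it. Tgfb2 held it in 2 places, Tgfbr2 in 1 and Tgfbr1 at the second of 2 starts, whereas Inhba and Tgfb1 held none. No promoter of the 6 genes held TGANTCA, the site of AP-1 factors (6.75% of all promoters), or TGACGTCA, the site of CREB factors (1.55%). A match is a description of the letters only.

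**Figure D3:**
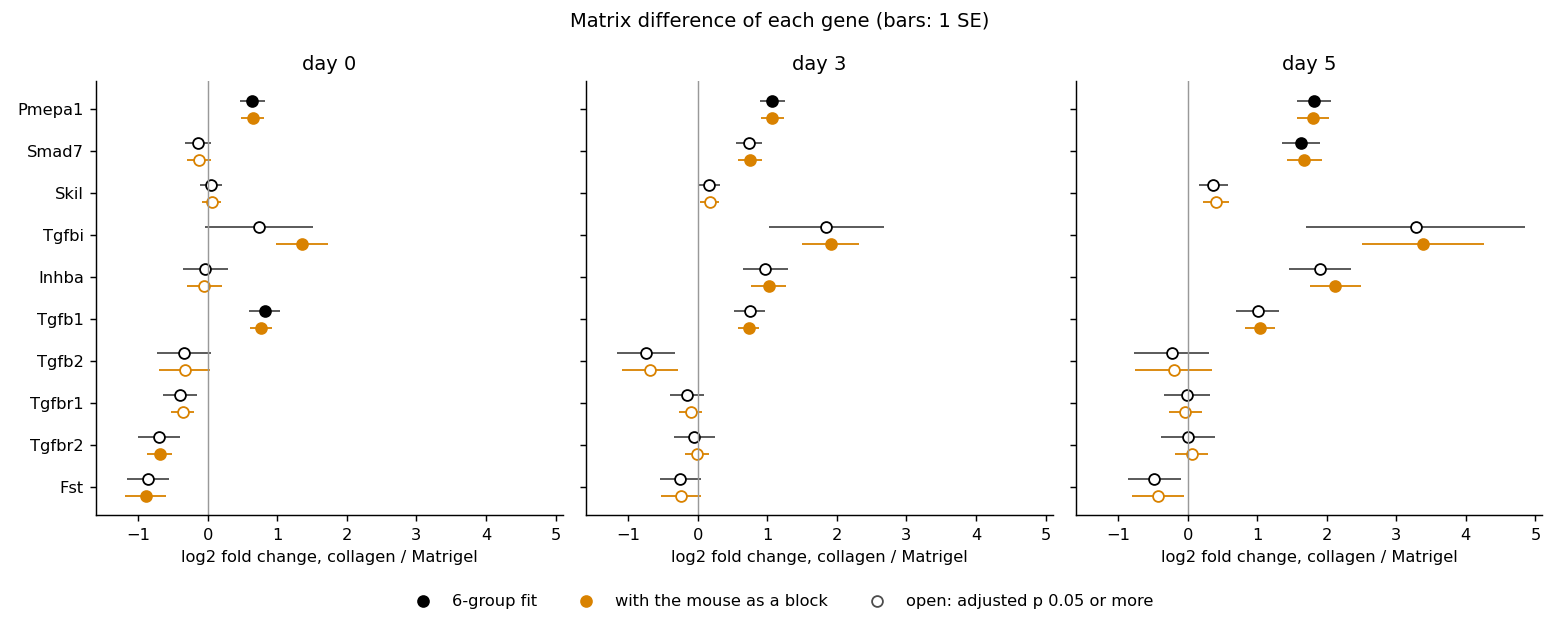
Log2 fold change of collagen over Matrigel (x axis) for the 10 genes (y axis) on days 0, 3 and 5, from the fit of 6 groups (black) and the paired fit by mouse (orange); bars are 1 SE and filled points have an adjusted p under 0.05. Pmepa1 is called on all 3 days in both fits (0.64, 1.07 and 1.82 without the block), and Tgfbi, Inhba and Tgfb1 on day 5 only with the block.

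Of the ligand genes, Inhba and Tgfb1 passed the test between matrices in at least 1 fit and Tgfb2 in neither. Inhba encodes the subunit of activin A and lies on chr13:16011851-16031621, plus strand. On day 0 mice 1 to 4 had 314.5, 361.9, 618.4 and 335.4 CPM of Inhba in collagen and 340.6, 546.8, 342.6 and 438.3 CPM in Matrigel, overlapping groups. On day 3 collagen sums reached 569.0, 742.9, 994.7 and 999.2 CPM, with 157.7, 555.1, 354.2 and 611.5 CPM in Matrigel. Day 5 left 308.3, 336.6 and 451.9 CPM in collagen and 87.4 and 107.9 CPM in Matrigel (mice 2 and 3). Inhba therefore peaked on day 3 in collagen and was lowest on day 5 in Matrigel.

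In collagen Inhba rose by 1.02 from day 0 to day 3 (SE 0.32, adjusted p = 0.0308), in all 4 mice. In Matrigel that step was 0.01 (SE 0.32, adjusted p = 0.982), and the fall from day 3 to day 5 was 2.11 on the log2 scale (SE 0.44, adjusted p = 0.0155). The fall in collagen over the same days, -1.18 (SE 0.35), was not called without the block (adjusted p = 0.124). It was called with the mouse as a block (-1.08, adjusted p = 0.0204) and by another tool, DESeq2. The matrix difference of Inhba was -0.03 on day 0 (adjusted p = 0.972), 0.97 on day 3 (SE 0.32, adjusted p = 0.265) and 1.91 on day 5 (SE 0.45, adjusted p = 0.0634). With the block the last 2 were called, at 1.02 (adjusted p = 0.0290) and 2.12 (adjusted p = 0.00392). Its change from day 0 to day 5 was 1.94 (adjusted p = 0.0763), and 2.17 with the block (adjusted p = 0.00497). The rise in collagen was not called without mouse 2, 3 or 4 (1.02, 1.22 and 0.86; adjusted p = 0.173, 0.0572 and 0.103), nor the fall in Matrigel without mouse 2 or 3 (-1.81 and -2.37; adjusted p = 0.382 and 0.197). The 13 Matrigel cells of mouse 1 on day 5 held 163.9 CPM of Inhba (95% Poisson interval 134 to 199), 225.0 CPM of Pmepa1 (189 to 266) and 25.7 CPM of Smad7 (14.7 to 41.8), each below the lowest collagen sum of that day.

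Tgfb1 encodes the TGF-beta ligand most widely made in carcinomas, secreted in a latent complex. On day 0 mice 1 to 4 had 55.3, 57.6, 93.4 and 44.9 CPM in collagen and 33.9, 38.0, 36.6 and 34.2 CPM in Matrigel, groups that did not overlap. Day 3 gave 99.3, 82.7, 90.2 and 49.0 CPM in collagen and 42.6, 59.1, 58.2 and 33.0 CPM in Matrigel. On day 5 it was 75.2, 69.2 and 85.4 CPM against 38.2 and 38.1 CPM. Collagen was higher in all pairs of sums from 1 mouse. The log2 difference was 0.82 on day 0 (SE 0.23, adjusted p = 0.0364), 0.74 on day 3 (SE 0.23, adjusted p = 0.210) and 1.01 on day 5 (SE 0.31, adjusted p = 0.152), and in the fit blocked by mouse 0.77, 0.73 and 1.04 (adjusted p = 0.00238, 0.0129 and 0.0109). The change of this difference was 0.19 by day 5 (SE 0.38, adjusted p = 0.860). In Matrigel the step from day 0 to day 3 was 0.44 (SE 0.23, adjusted p = 0.140), called with the block (0.41, SE 0.16, adjusted p = 0.0361). With 1 mouse left out that step without the block was 0.35 to 0.60, called in at least 1 of those fits. The day 0 call was lost without mouse 1, 2 or 3 (0.84, 0.89 and 0.57; adjusted p = 0.159, 0.192 and 0.230). It was also lost without the unnamed cluster that held the highest Tgfb1 level, where the difference was 0.62 (adjusted p = 0.0537). Fibroblast-like cells held more Tgfb1 than tumour cells (252 against 68.2 CPM), and so did macrophage-like cells (178 CPM) and T and NK-like cells (139 CPM). The 6 fibroblast markers summed to 7.58 to 12.4 CPM in the collagen and 3.49 to 18.6 CPM in the Matrigel tumour sums on day 0, where Col3a1 and Lum respectively were at 0. They summed to 8.47 to 20.6 and 2.18 to 5.50 CPM on day 3 with none at 0, and to 14.0 to 30.1 and 4.69 to 5.88 CPM on day 5, with Col3a1 at 0 in Matrigel. The part of any of these cell types in the Tgfb1 difference was not tested.

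Tgfb2, which encodes a second TGF-beta ligand, was counted at low levels, from 4.4 to 24.0 CPM. On day 0 it stood at 16.8, 16.9, 10.3 and 15.9 CPM in the collagen sums of mice 1 to 4, and on day 3 at 6.0, 4.4, 5.6 and 9.8 CPM. It fell in collagen by 1.29 on the log2 scale (SE 0.41, adjusted p = 0.0317), a call lost without mouse 1 or mouse 2 (-1.18 and -1.06; adjusted p = 0.198 and 0.162). In Matrigel the step was -0.89 (SE 0.40, adjusted p = 0.0886), called with the block (-1.02, adjusted p = 0.0353). With 1 mouse left out the step without the block was -1.42 to -0.46, called in at least 1 of those fits. Its matrix differences were -0.34, -0.74 and -0.23 (SE 0.39, 0.41 and 0.54), none called in either fit.

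The promoters of Inhba and Tgfb1 differ in makeup, and they are shown because these are the ligand genes that were higher in collagen on days 3 and 5 with the block. Inhba, at chr13:16011601-16011850 on the plus strand, had 43.2% G and C and 3 CpG pairs in 250 bases. Tgfb1, at chr7:25686752-25687001 on the plus strand, had 75.2% and 21 pairs, and the median over all promoters was 52.4% and 6. Lower case marks that neither holds a match to the 3 motifs.
Inhba: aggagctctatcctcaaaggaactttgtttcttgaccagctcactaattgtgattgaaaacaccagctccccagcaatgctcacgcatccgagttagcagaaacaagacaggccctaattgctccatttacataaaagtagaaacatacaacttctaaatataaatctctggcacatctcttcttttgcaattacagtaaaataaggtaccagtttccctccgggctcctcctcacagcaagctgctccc
Tgfb1: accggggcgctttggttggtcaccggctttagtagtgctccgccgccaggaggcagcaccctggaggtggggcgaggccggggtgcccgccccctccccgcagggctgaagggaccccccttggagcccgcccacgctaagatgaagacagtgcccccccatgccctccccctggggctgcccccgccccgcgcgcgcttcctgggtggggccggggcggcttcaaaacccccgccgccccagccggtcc

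Neither receptor passed the test between matrices without the block. Tgfbr1, the type I kinase that phosphorylates SMAD2 and SMAD3, ranged from 10.4 to 36.7 CPM over the 21 sums, with the highest in Matrigel on day 0 in mouse 4. Its matrix differences were -0.40, -0.16 and -0.01 on days 0, 3 and 5 (SE 0.24, 0.24 and 0.33; adjusted p = 0.345, 0.943 and 1.00). Its fall in Matrigel from day 0 to day 3, -0.41, was called only with the block (-0.43, adjusted p = 0.0351). Tgfbr2, the type II receptor that binds the ligand first, had 36.3, 48.6, 31.8 and 39.0 CPM in collagen and 70.7, 63.4, 45.1 and 73.4 CPM in Matrigel on day 0 in mice 1 to 4. It was lower in collagen in every mouse, with a difference of -0.70 (SE 0.30, adjusted p = 0.160), called with the block (-0.69, SE 0.18, adjusted p = 0.00977). By day 3 the collagen sums were at 51.0, 57.5, 44.7 and 76.2 CPM, a step of 0.55 (adjusted p = 0.209; with the block 0.54, adjusted p = 0.0233), and the matrix difference was -0.05 (SE 0.29). On day 5 it was 0.01 (SE 0.39).

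Fst encodes follistatin, a secreted protein that binds activin and keeps it from its receptors. On day 0 mice 1 to 4 had 183.3, 195.1, 133.6 and 179.1 CPM in collagen and 489.9, 278.1, 250.6 and 239.1 CPM in Matrigel. Every Matrigel sum was above every collagen sum, and mouse 1 was the highest. The difference was -0.86 (SE 0.30, adjusted p = 0.0875), called with the block (-0.89, adjusted p = 0.0347), opposite in sign to those of Pmepa1 and Tgfb1. On day 3 collagen sums held 330.3, 504.7, 433.1 and 725.1 CPM and Matrigel sums 289.1, 884.9, 698.6 and 492.1 CPM, with wide overlap. Fst rose from day 0 to day 3 by 1.53 in collagen (SE 0.30, adjusted p = 0.00158) and by 0.91 in Matrigel (SE 0.30, adjusted p = 0.0216). The first call held without any 1 mouse, and the second was lost without mouse 2 (0.60, adjusted p = 0.254) or mouse 3 (0.74, adjusted p = 0.169). Day 5 gave 287.3, 420.0 and 331.0 CPM in collagen and 535.5 and 428.4 CPM in Matrigel, a difference of -0.48 (SE 0.38, adjusted p = 0.698).

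Counted over the 10 genes, 2 were called between matrices on day 0, both higher in collagen, where 7.03% of all genes tested were called. The count was 1 on day 3, against 0.205% of all genes, and 2 on day 5, against 0.455%. With the block it was 5 on each day, against 24.3%, 4.37% and 6.28% of all genes. The median log2 difference of the 10 was -0.09, 0.45 and 0.69 on the 3 days, and that of all genes 0.01, -0.01 and 0.00. Because the 10 were chosen with earlier results of these data known, the counts given here are descriptions. In collagen 4 of 10 were called from day 0 to day 3 (19.6% of all genes) and 5 with the block (37.7%). From day 3 to day 5 edgeR called 0 without the block (1.15%; 1 gene had an unadjusted p under 0.05) and 1 with it (10.5%), and DESeq2 called 1. In Matrigel 4 were called over the first step (39.1%), a share close to that of all genes, and 7 with the block (54.8%). Over the second step 2 were called in either fit (2.5% and 12.7% of all genes). For the change of the matrix difference edgeR's counts were 0 by day 3 (0.0303%; 2 genes had an unadjusted p under 0.05, and DESeq2 called 0), 1 with the block (5.34%), and 1 by day 5 (1.19%), 3 with the block (13.7%).

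Across the 21 sums, after centring log2 levels within each mouse, Pmepa1 correlated with Tgfbi at a Pearson r of 0.86, with Smad7 at 0.76, with Tgfb1 at 0.67, with Inhba at 0.66 and with Skil at 0.51. Smad7 correlated with Tgfbi at 0.70, Inhba at 0.67 and Skil at 0.61, but with Tgfb1 at 0.39. Skil ran most closely with Tgfb2 (0.74) and against Fst (-0.75). These sums share 4 mice and 3 pools, so the values are descriptions. Among 6241 genes with a mean of at least 20 CPM, those most like Pmepa1 were Arl4c and Cotl1 (0.91 each), Nav2 and Postn (0.88 each) and Sdc1 (0.87). Postn encodes periostin, a matrix protein, and Sdc1 a cell-surface proteoglycan. Those most like Inhba were Plin2 and Rhoc (0.93 each), Fxyd5 (0.92), Acsbg1 (0.91) and Tbl1x (0.90).

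In a list of 20 targets of SMAD2 and SMAD3, 4 of which are the targets above, the matrix difference was positive for 9 genes on day 0, 18 on day 3 and 20 on day 5. The median was -0.01, 0.70 and 0.84, and 3, 2 and 3 genes were called, all higher in collagen, where 7.03%, 0.205% and 0.455% of all genes were called. With the block 6 were higher and 1 lower on day 0, a share not far from the 24.3% of all genes. On each of days 3 and 5 the block gave 9 higher, against 4.37% and 6.28% of all genes. The list was chosen with earlier results of these data known, so these signs and shares are descriptions. Col7a1, the collagen of anchoring fibrils, was called on all 3 days, at 0.96 (SE 0.27, adjusted p = 0.0370), 1.45 (SE 0.28, adjusted p = 0.0275) and 2.05 (SE 0.41, adjusted p = 0.0348). Its mean was 18.7 CPM ± 2.7 in collagen (SD, n = 3) and 4.5 CPM ± 0.2 in Matrigel (n = 2) on day 5. Ldlrad4, an inhibitor of SMAD phosphorylation, was higher on day 0 (0.77, SE 0.22, adjusted p = 0.0385).

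Over time members of this list moved in both directions. From day 0 to day 3, 11 of the 20 fell and 2 rose in Matrigel, while 4 fell and 2 rose in collagen. Of all genes 39.1% and 19.6% were called over that step. The list's median was -0.63 in Matrigel and -0.12 in collagen, and that of all genes -0.01 and -0.02. The difference between these counts was not itself tested, and 0 of the 20 had a change of the matrix difference called by edgeR by day 3 (4 had an unadjusted p under 0.05, and 4 were called with the block, all towards collagen). Ctgf, which encodes a matricellular protein also driven by mechanical signals, fell by 3.03 in Matrigel (SE 0.50, adjusted p = 0.000110) and by 1.84 in collagen (SE 0.46, adjusted p = 0.00776). Tgif1, a SMAD corepressor, fell by 1.20 (SE 0.16, adjusted p = 1.36e-05) and 0.61 (SE 0.16, adjusted p = 0.0105). Cdkn2b, the cell-cycle inhibitor p15, instead rose in collagen by 1.72 (SE 0.32, adjusted p = 0.000963), from a mean of 34.5 CPM to 114.3 CPM. In Matrigel its mean also went up, from 35.5 to 85.9 CPM. The matrix difference of Cdkn2b on day 3 was not called (0.42, SE 0.31, adjusted p = 0.758).

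Other parts of the pathway were counted in lists of unequal size, and their counts are not compared with those of the targets. Smad7, Skil, Ski and Tgif1 are in both the target list and the list of SMADs and regulators. Thbs1 is in both the target list and the list of traps. Of 13 SMADs and intracellular regulators, 8 fell and 0 rose in Matrigel from day 0 to day 3 (39.1% of all genes were called), among them Smad3, a transcription factor of the pathway (-1.05, SE 0.22, adjusted p = 0.000915). In collagen 3 of the 13 fell over that step, a share close to the 19.6% of all genes, Smad3 by 0.66 (SE 0.21, adjusted p = 0.0339). Between matrices edgeR called 0, 0 and 1 of the 13 on the 3 days, the last being Smad7, and 2 and 3 had an unadjusted p under 0.05 on days 0 and 3. Of all genes 7.03%, 0.205% and 0.455% were called. With the block 3 of the 13 were lower on day 0, a share close to the 24.3% of all genes. On each later day 1 of the 13 was higher, against 4.37% and 6.28% of all genes. Of 7 ligand genes tested out of 9 listed, Inhbb, another activin subunit, was higher in collagen on day 0 (0.79, SE 0.22, adjusted p = 0.0382) and fell there by 1.21 by day 3 (SE 0.22, adjusted p = 0.000873), the opposite of Inhba. In Matrigel Inhbb rose from day 3 to day 5 by 1.34 (SE 0.28, adjusted p = 0.0152), again while Inhba fell. Tgfb3, a further TGF-beta ligand, was at 6.4 CPM ± 0.7 in collagen and 29.1 CPM ± 25.0 in Matrigel on day 5, lower in collagen only with the block (-2.04, SE 0.45, adjusted p = 0.0139).

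Of 9 receptors tested out of 10 listed, none was called between matrices on any day by edgeR without the block (7.03%, 0.205% and 0.455% of all genes were). Of the 9, 3, 0 and 2 had an unadjusted p under 0.05. With the block 2 were lower on day 0, a share close to the 24.3% of all genes. On day 5 the block gave 1 higher, against 6.28% of all genes. Acvr1, a type I receptor for activins and BMPs, fell in Matrigel by 1.03 by day 3 (SE 0.18, adjusted p = 0.000211), and its matrix difference changed from day 0 to day 5 by 1.25 (SE 0.30, adjusted p = 0.0493). Of 15 traps, latency proteins and activators, Ltbp3, a latent TGF-beta binding protein, was higher in collagen on day 0 (0.91, SE 0.26, adjusted p = 0.0397). With the block Ltbp3 was also higher on day 3 (0.57, SE 0.13, adjusted p = 0.0225) but lower on day 5 (-0.69, SE 0.17, adjusted p = 0.0269), a change from day 0 of -1.59 (SE 0.21, adjusted p = 0.000595). Itgav, the alpha subunit of integrins that release latent TGF-beta, was higher on day 5 (1.11, SE 0.18, adjusted p = 0.0110), at 51.9 CPM ± 0.9 against 24.0 ± 1.3. Bambi, a decoy receptor, fell by day 3 in collagen (-1.22, SE 0.25, adjusted p = 0.00207) and Matrigel (-1.51, SE 0.26, adjusted p = 0.000170). In the BMP arm, tested for 14 of 15 genes, 1 was higher and 1 lower in collagen on day 0 (7.03% of all genes were called): Bmp7, a BMP ligand (2.05, SE 0.61, adjusted p = 0.0485), and Id1, a BMP target (-1.12, SE 0.32, adjusted p = 0.0425). None was called by edgeR on days 3 and 5 without the block, where 5 and 2 had an unadjusted p under 0.05. With it Id1, Id2 and Id3 were lower in collagen on day 3, with differences of -1.29, -1.26 and -1.68 (SE 0.26, 0.17 and 0.42; adjusted p = 0.0111, 0.000622 and 0.0304). On day 5 the block called Id2 lower (-1.36, SE 0.22, adjusted p = 0.00201) and Bmp2, a BMP ligand, higher (4.19, SE 0.89, adjusted p = 0.0118), at 24.9 CPM ± 4.4 in collagen against 1.7 ± 1.1 in Matrigel. With the block 4.37% and 6.28% of all genes were called on days 3 and 5.

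**Figure D4:**
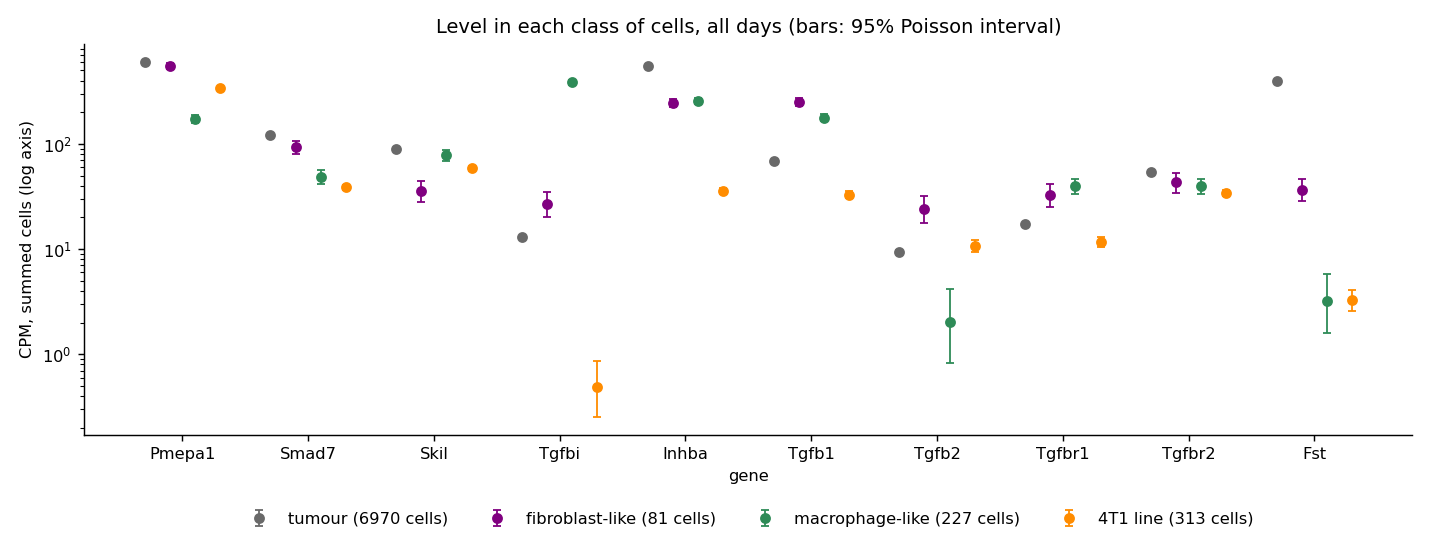
CPM of summed cells (y axis, log scale) of the 10 genes (x axis) in tumour, fibroblast-like, macrophage-like and 4T1 cells of all days, with 95% Poisson intervals that cover counting error only. Fst and Inhba are highest in tumour cells (399 and 548 CPM), and Tgfbi in macrophage-like cells (387 CPM).

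The classes of cells held the members in different proportions. Fst was largely a tumour cell transcript, at 399 CPM in 6970 tumour cells, 36.7 in 81 fibroblast-like cells, 3.21 in 227 macrophage-like cells and 3.28 in 313 cells of 4T1. After thinning, 42.6% of tumour cells and 0.521% of macrophage-like cells held a Fst UMI. Inhba was at 548 CPM in tumour cells, 258 in macrophage-like, 246 in fibroblast-like and 35.8 in 4T1 cells. Pmepa1 was at 602 CPM in tumour cells and 550 in fibroblast-like cells, against 337 in 4T1 and 173 in macrophage-like cells. In the 4T1 cells, grown on plastic and present in every pool, Pmepa1 stood at 332, 344 and 317 CPM on days 0, 3 and 5 (95% Poisson intervals 320 to 345, 334 to 354 and 296 to 339). Other members were less level in the same 4T1 cells. Smad7 stood at 51.47, 30.86 and 39.01 CPM on days 0, 3 and 5, and Skil at 67.43, 53.52 and 57.39. Tgfb1 was at 44.79, 23.31 and 47.27 CPM, and Fst, at few counts, at 1.237, 4.399 and 3.751. From day 0 to day 3 Tgfb2 (11.01 and 11.22 CPM) and Tgfbr1 (10.64 and 11.95 CPM) moved little. That line has 1 sum per pool, so these values have no replicate error. The part of the pool in the steps between days was not tested.

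Within the tumour cells the members peaked in different clusters. Pmepa1 was highest, at 1181 CPM, in 303 cells led by Krt5, Acta2 and Tagln, genes of basal and contractile cells, where Smad7 (55.2 CPM) was the second lowest of all clusters. Inhba was highest, at 1748 CPM, in the unnamed cluster of 238 cells led by Stfa and Il11 genes, and lowest, at 75.9 CPM, in 404 cells led by the milk and interferon genes Csn1s1 and Cxcl10. Skil, Tgfb2 and Tgfbr1 were each highest in 213 cells led by Cyr61, Dusp1 and Ctgf, at 377, 84.2 and 57.1 CPM. Fst led a cluster of 410 cells together with Mdm2 and Ccng1, genes of the p53 response. Within each of mice 1 to 4, Fst was at 758, 1056, 1134 and 3808 CPM in that cluster and at 303, 402, 300 and 370 CPM in the other tumour cells. The cluster held 52, 230, 110 and 18 cells of these mice, so the value of mouse 4 rests on few cells. It was picked because Fst was among its leading genes. The clusters were built from these counts, so their peaks are descriptions.

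To see whether the matrix differences were present among like cells, the matrices were set side by side within 1 cluster, mouse and day wherever both had at least 20 cells. Pmepa1 was higher in collagen in 7 of 7 such sets on day 0, 6 of 6 on day 3 and 1 of 1 on day 5, with median ratios of 1.48, 1.95 and 3.74. Smad7 was higher in 4 of 7, 6 of 6 and 1 of 1, Tgfb1 in 6 of 7, 6 of 6 and 1 of 1, and Inhba in 5 of 7, 5 of 6 and 1 of 1. Tgfbi was higher in 6 of 7 and 6 of 6 on days 0 and 3. Fst was lower in collagen in 7 of 7 sets on day 0 (median ratio 0.505) and in 4 of 6 on day 3 (0.649), and higher in the 1 set of day 5 (2.37). Tgfbr2 was lower in 6 of 7 on day 0 (0.586) and in 3 of 6 on day 3 (1.01), and higher in the 1 set of day 5 (1.38). Skil was higher in collagen in 7 of 7, 5 of 6 and 1 of 1, with a median ratio of 1.25 on day 0, though its sums over all cells were level. The sets share mice, so the counts carry no test.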

How the data were processed

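The authors deposited UMI counts as a matrix of cells by genes, in which every entry was a whole number. Per the file headers the deposited annotation gives each cell's mouse, matrix, day and mitochondrial fraction. Cell Ranger 3.0.2, Scanpy 1.4.4 and GRCm38/mm10 are listed in the submitters' processing notes, without roles. The submitters' batch column, which joins the first 2 time points, was not used.

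Cells were clustered with Scanpy 1.11.5 and leidenalg 0.10.2 (2000 variable genes, 30 components, 15 neighbours, resolution 1.0, 24 clusters), and clusters were named from marker lists. No doublet caller was run. Sums over the cells of 1 mouse, matrix and day (at least 20 cells) were formed and tested with edgeR 4.0.16 in R 4.3.3 with TMM scaling, Benjamini-Hochberg adjustment within each of 9 comparisons, and a call at 0.05. The fit without the mouse as a block was the main one. The labels say the same animals were used, and same-mouse deviations from group means correlated with a median r of 0.468 (0.085 to 0.816; other mice -0.154), with 21 of 21 sums closest to their own mouse. No 2 replicates were copies of each other: over 28 pairs, chi-square divided by its degrees of freedom was 7.5 to 64.4. Shares used cells thinned to 5000 UMIs and exact permutation tests, and Poisson intervals are exact. Methods were tested on simulated data. With 1 spread for all genes, the main fit recovered 33, 45 and 19 of 100 genes changed 2-fold between matrices on days 0, 3 and 5. Of 100 genes changed 4-fold it recovered 100, 100 and 92, and it called 8, 7 and 5 unchanged genes. A difference of 2-fold was thus often missed.

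The members, gene lists and marker lists were chosen with earlier results of these data known. All 10 members are named, and of each list up to 4 genes with the smallest p per comparison were eligible, with a selection printed. Itgav, Acvr1, Ltbp3, Ldlrad4, Bmp7 and Id1 are among them. For 1 gene counted in the target list, individual values are not reported here. Alternatives were DESeq2 1.42.0, other size factors, no count filter, a minimum of 50 cells, only the groups compared, other cell sets and leaving out each mouse.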

Additional observations from a re-analysis of the deposited data

Results flagged for a closer look

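In 4 of 40 groups of 4 sums, 1 mouse stood far from the other 3 by Dixon's test, and chance flags about 1 in 20. Tgfbi stood at 42.7 CPM in Matrigel on day 0 in mouse 4, and Inhba at 618.4 CPM in collagen on day 0 in mouse 3. Tgfb2 stood at 10.3 CPM in collagen on day 0 in mouse 3, and Fst at 489.9 CPM in Matrigel on day 0 in mouse 1.

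For Smad7, Acvr1 and Itgav the test of the change in matrix difference from day 0 to day 5 passed at an adjusted p under 0.05 by edgeR. The log2 change was 1.77 for Smad7, 1.25 for Acvr1 and 0.91 for Itgav. Day 5 is 1 pool with 2 Matrigel sums.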

How the results depend on the processing

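No log2 difference that was called in either fit changed sign under any alternative tried. The paired fit, with the mouse as a replicate block, kept the 16 calls of members and added 18: members called were 5, 5 and 5 between matrices on days 0, 3 and 5, 5 and 1 over the steps in collagen, 7 in Matrigel from day 0 to 3, and 1 and 3 for the change of the matrix difference by days 3 and 5. It changed no other call of a member. DESeq2 kept the 16 and added 6, calling 3, 2 and 3 on days 0, 3 and 5, 1 in collagen from day 3 to 5 and 3 for the change by day 5. Of all 13184 genes it called 1410, 180 and 264 on days 0, 3 and 5. It called 476 in collagen from day 3 to 5 and 552 for the change by day 5. Without the low count filter 0 were called on day 0 and 1 in Matrigel from day 3 to 5, against 654 and 217 of all 20512 genes. With at least 50 cells per sum, which leaves 1 Matrigel sum on day 5, counts were 1, 0 and 0 on days 0, 3 and 5, 3 and 1 over the steps in Matrigel and 0 for the change by day 5. Fits of only the groups compared called 0 and 0 on days 0 and 3, 2 and 0 over the steps in Matrigel and 2 for the change by day 5. Over all genes, in the same order, they called 297 of 11833, 0 of 12099, 3578 of 11676, 2 of 11351 and 165 of 12961. On day 0, 1 was called after removing the 56 cells with a mouse label that clustered with 4T1, with stromal and immune clusters included (which also lost 1 of 4 in collagen from day 0 to 3), and without the other unnamed cluster, which gave 2 for the change by day 5. Of all genes, in the same order, these settings called 850 of 13152, 698 of 13610 and 923 of 13152 on day 0. With stromal and immune clusters included 2762 were called in collagen from day 0 to 3. Without the other unnamed cluster 235 were called for the change by day 5. The setting without the other unnamed cluster and the 1 without low-UMI clusters, which kept all 16 calls, were chosen after seeing the data. Leaving out each mouse gave 0 to 3, 0 to 1 and 0 to 4 members between matrices, 2 to 3 and 0 to 0 over the steps in collagen, 2 to 5 and 0 to 2 in Matrigel, and 0 to 0 and 0 to 1 for the changes; a fit that leaves 1 Matrigel sum on day 5 assumes that it varies like the other groups. Over all genes the main fit called 927, 27 and 60 of 13184 between matrices on days 0, 3 and 5. Without mouse 1 it called 132, 1 and 1 of 12825, and without mouse 4 799, 58 and 276 of 12900. Counts over all genes are not given without mouse 2 or 3, where 1 Matrigel sum is left on day 5. Except where fewer sums or genes entered, the cause was not tested.

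The thinned Pmepa1 shares without each mouse differed by 9.02 to 10.3, 16.1 to 21.9 and 32.0 to 41.8 points on days 0, 3 and 5, where 3 against 3 mice cannot go below an exact p of 0.1. Paired by mouse (replicate block) the differences of days 0 and 3 were 9.50 and 18.2 with an exact p of 0.125. Without thinning they were 2.74 on day 0 and, reversed, -0.537 on day 5. Low counts limit Tgfbi, at 0.5 CPM in its lowest sum, and Tgfb2, at 4.4 CPM, and the 2 Matrigel sums limit the day 5 values that use them.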
